A study of Mus musculus with 24 samples.

Results

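Homeostatic microglia markers are genes that resting microglia, the resident macrophages of the brain, express at high levels and that tend to fall when these cells respond to injury or plaques. The 9 genes described here were chosen by name, as listed rows of the table of normalised read counts: P2ry12, P2ry13, Gpr34, Cx3cr1, Csf1r, Tmem119, Selplg, Siglech and Sall1. All 9 were among the 21793 genes of the table. All 9 were also among the 14162 genes kept for testing, which had a normalised count of at least 10 in at least 3 libraries. The libraries came from the hippocampus of 24 female mice, each mouse giving 1 library. The 3xTg-AD line (3xTg here) expresses mutant human APP and MAPT in neurons, from transgenes placed in a Thy1 cassette; mice of the B6129SF2/J strain (WT here) were compared with it. From 3 months of age, for 6 months, mice of both strains ate a control diet (C), a ketogenic diet (K) or a diet with medium-chain triglyceride (MCT, M). All 3 diets held 10% protein. At 4.1 kcal/g, the control and MCT diets both held 70% carbohydrate, with 20% long-chain triglyceride in the former and 10% each of long-chain and medium-chain triglyceride in the latter. The remainder of the ketogenic diet, at 6.7 kcal/g, was 90% long-chain triglyceride. There were 4 libraries in each WT group, 3 in 3xTg control, 5 in 3xTg ketogenic and 4 in 3xTg MCT, named here by strain, diet and replicate (3xTg_C_1).

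Microglia depend for survival on signalling through Csf1r, the receptor of CSF1 and IL34, and on TGF-beta, which maintains their resting identity. P2ry12 and P2ry13 are receptors of extracellular ADP that steer the movement of microglial processes, Gpr34 is a receptor of lysophosphatidylserine, and Cx3cr1 is the receptor of fractalkine, a ligand made by neurons. Tmem119 encodes a transmembrane protein of microglia, Selplg the P-selectin ligand, Siglech a sialic acid binding lectin, and Sall1 a transcription factor that keeps microglia in their resting state.

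Depth was 10.08 to 25.81 M reads assigned to genes per library, except for 3xTg_K_2 with 2.65 M, in which the 9 genes had between 36 and 247 reads. In the other libraries no gene of the 9 had fewer than 102 reads. The genotype labels were checked with Thy1, whose cassette drives the transgenes. Thy1 was at 6952 to 8137 normalised counts in 11 WT libraries and at 20385 to 29277 in 10 3xTg libraries, but the library labelled 3xTg_C_3 had 9189, the one labelled 3xTg_K_1 had 8112 and the one labelled WT_M_2 had 23048. Results are therefore given for all 24 libraries as labelled and, where that moved a result on the 9 genes, also for the 21 libraries without these 3. In bulk tissue, fewer microglia and less RNA per microglial cell cannot be told apart.

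The promoters of the neighbouring receptor genes P2ry12 and P2ry13 are shown because these genes, with related products, gave different genotype results. Both lie on the minus strand of chromosome 3 in GRCm38, P2ry12 at chr3:59216272-59262871 and P2ry13 at chr3:59207892-59210882, inside the span of Med12l, which is on the opposite strand. Each sequence runs 5′ to 3′ on the minus strand from 250 bases before the RefSeq start to 50 bases after it (GRCm38.p6). For P2ry12 that start and the whole window lie outside the gene span given above, while the P2ry13 window overlaps its span. The windows are thus placed differently against the annotated genes. Capitals mark GAGGAA, a core motif of PU.1, the factor that specifies macrophages and microglia.
P2ry12 promoter, chr3:59262936-59263235: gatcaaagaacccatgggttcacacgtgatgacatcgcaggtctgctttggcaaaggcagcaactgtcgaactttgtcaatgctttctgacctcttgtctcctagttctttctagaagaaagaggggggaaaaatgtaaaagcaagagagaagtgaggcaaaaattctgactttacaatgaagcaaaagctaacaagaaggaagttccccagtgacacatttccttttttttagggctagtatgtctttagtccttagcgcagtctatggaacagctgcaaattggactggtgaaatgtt
P2ry13 promoter, chr3:59210833-59211132: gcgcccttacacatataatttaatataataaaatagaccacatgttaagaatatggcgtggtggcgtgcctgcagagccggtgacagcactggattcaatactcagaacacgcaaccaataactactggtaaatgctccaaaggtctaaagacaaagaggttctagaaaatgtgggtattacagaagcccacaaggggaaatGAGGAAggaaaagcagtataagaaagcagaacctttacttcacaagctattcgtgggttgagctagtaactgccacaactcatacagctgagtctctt

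The P2ry13 window held 1 copy of GAGGAA, its first base 48 bases before the start, and the P2ry12 window held none on either strand. RefSeq promoter windows were matched for 5 of the 9 genes (P2ry12, P2ry13, Cx3cr1, Siglech and Sall1, 7 windows in all, 3 of them of Sall1). Besides P2ry13, the Siglech window held 1 copy, on the minus strand. GAGGAA was present, on either strand, in 28.3% of 32851 promoter windows of the same 300 bases. The longer PU.1 motif GAGGAAGT, which contains the core, and the composite of an ETS and an IRF half-site, GGAANNGAAA, were found in none of the 7 windows, against 3.20% and 2.72% of all windows. A match is a description of the letters and not a measured binding site. No other motif was searched, so a window without these letters is not shown to lack a site.

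Per kilobase of exon, the mean level over the 24 libraries was highest for P2ry12, with 300.3 normalised counts per kb, followed by Csf1r with 214 and Gpr34 with 145. Their percentile ranks were 84.4, 77.6 and 67.8 among 14045 kept genes with a known exonic length. Cx3cr1 was at 138 per kb, Tmem119 at 98.9 and P2ry13 at 76.6, the last with a percentile rank of 50. Siglech at 69.8, Selplg at 65.3 and Sall1 at 58.0 per kb came last, so the 9 genes spanned the middle and upper range of hippocampal transcripts. Gpr34 lies on chromosome X (13632089 to 13640858), inside Cask, Cx3cr1 on chromosome 9 (119901616 to 120069879), Siglech on chromosome 7 (55768178 to 55778925) and Sall1 on chromosome 8 (89027235 to 89044162). Tmem119 (113793729 to 113800516) and Selplg (113818536 to 113832644) lie close together on the minus strand of chromosome 5. The strand setting of the authors' counting is not given in the sources used here. Csf1r, on chromosome 18, shares 873 exonic bases, 15.1% of its exons, with Hmgxb3 on the opposite strand (mean 584 normalised counts), so reads there may belong to either gene. P2ry12 shares 9 exonic bases with Med12l, P2ry13 and Gpr34 share none with their host genes, and Cx3cr1 shares 78 with Gm33858.

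The genotype comparison averaged over the diets sets all 3xTg groups against all WT groups, giving each diet the same weight. P2ry13, Tmem119 and Selplg rose in 3xTg, to between 1.19-fold and 1.23-fold of WT, while P2ry12 and Cx3cr1 had almost the same mean in both strains. In limma, 3 of the 9 genes passed an adjusted p of 0.05, all higher, where 8.1% of the 14162 genes passed in either direction (526 higher and 621 lower) and 3.71% passed as higher. Of the 9 differences, 7 were above 0 with a median of 0.047 on the log2 scale, against 49.6% above 0 and a median of -0.001 over all genes tested.

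Among the receptors, P2ry13 ranged in WT from 143 (WT_C_2) over a median of 178 to 199.8 normalised counts (WT_K_4), and in 3xTg from 176 (3xTg_M_4) over 208 to 263 (3xTg_K_1). All 12 3xTg libraries lay above the WT mean and 7 lay above every WT library. The means were 176 ± 20.1 (SD, n = 12) and 211 ± 30.4 (n = 12), a log2 difference of 0.27 ± 0.08 (SE; limma adjusted p = 0.0283), or 1.21-fold. P2ry12, its neighbour and fellow ADP receptor, ranged from 637 over 763 to 867 in WT and from 637 over 772 to 899 in 3xTg, so the strains overlapped over nearly their whole range. Its means were 766 ± 65.9 and 764 ± 91.6 (n = 12 each) and its log2 difference 0.00 ± 0.06, with a 95% interval from -0.12 to 0.12 (limma adjusted p = 0.982).

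Cx3cr1 likewise was at 624 ± 61.2 in WT and 620 ± 62.8 normalised counts in 3xTg (SD, n = 12 each), with the same interval of -0.12 to 0.12 (limma adjusted p = 0.981). Gpr34 was at 315 ± 35.9 and 293 ± 39.3, a log2 difference of -0.10 ± 0.07 with an interval from -0.25 to 0.04 (adjusted p = 0.406). It lay below the WT mean in 10 of 12 3xTg libraries, though the highest value of all, 391, was in the library labelled 3xTg_K_1.

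Csf1r, which receives the survival signal, had values from 1004 (WT_C_1) over 1167 to 1382 (the library labelled WT_M_2) in WT and from 1146 (the library labelled 3xTg_C_3) over 1291 to 1390 (3xTg_C_1) in 3xTg. In 11 of 12 3xTg libraries it was above the WT mean, and the exception was the library labelled 3xTg_C_3. The means were 1182 ± 106 and 1294 ± 68.1 (SD, n = 12 each), and the log2 difference of 0.13 ± 0.04 just missed the threshold (limma adjusted p = 0.0516). Without the 3 libraries whose Thy1 went against their label it was 0.18 ± 0.04 and passed (limma adjusted p = 0.00547). In those 21 libraries, 6 of 10 3xTg libraries lay above every WT library and 9 of 11 WT libraries lay below every 3xTg library.

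Tmem119 had the largest difference of the 9. It ranged from 148 (WT_C_1) over 218 to 238 (WT_K_4) normalised counts in WT and from 188 (the library labelled 3xTg_C_3) over 249.9 to 332 (3xTg_M_1) in 3xTg. The means were 205 ± 31.5 and 253 ± 37.2 (SD, n = 12 each), a log2 difference of 0.30 ± 0.08 (limma adjusted p = 0.0254), or 1.23-fold, with 8 of 12 3xTg libraries above every WT library. In the 21 libraries the difference was 0.38 ± 0.08 (limma adjusted p = 0.00368).

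Selplg ranged from 199.5 (WT_C_1) over 253 to 351 (the library labelled WT_M_2) in WT and from 243 (3xTg_K_2) over 311 to 374 (3xTg_C_1) in 3xTg. Only 1 3xTg library lay above every WT library, and 9 of 12 lay above the WT mean. The means were 257 ± 40.1 and 301 ± 39.3 (SD, n = 12 each), a log2 difference of 0.25 ± 0.08 (limma adjusted p = 0.0477). Without the 3 libraries the difference was 0.32 ± 0.07 (limma adjusted p = 0.00256) and 6 of 10 3xTg libraries lay above every WT library. Siglech, the lectin, was at 233 ± 27.5 and 240 ± 25.6 (n = 12 each) and had a log2 difference of 0.05 ± 0.07 (adjusted p = 0.722).

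Sall1, the transcription factor, lay on the other side. It ranged from 293 (WT_C_1) over 320 to 361 (WT_C_4) in WT and from 243 (3xTg_K_2) over 288 to 322 (3xTg_M_1) in 3xTg. In 3xTg, 10 of 12 libraries lay below the WT mean and 7 lay below every WT library. The means were 319 ± 18.3 and 292 ± 22.4 (SD, n = 12 each), a log2 difference of -0.13 ± 0.05 that did not pass (limma adjusted p = 0.0836), nor did it in 21 libraries, at -0.14 ± 0.05 (limma adjusted p = 0.0644).

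**Figure D1:**
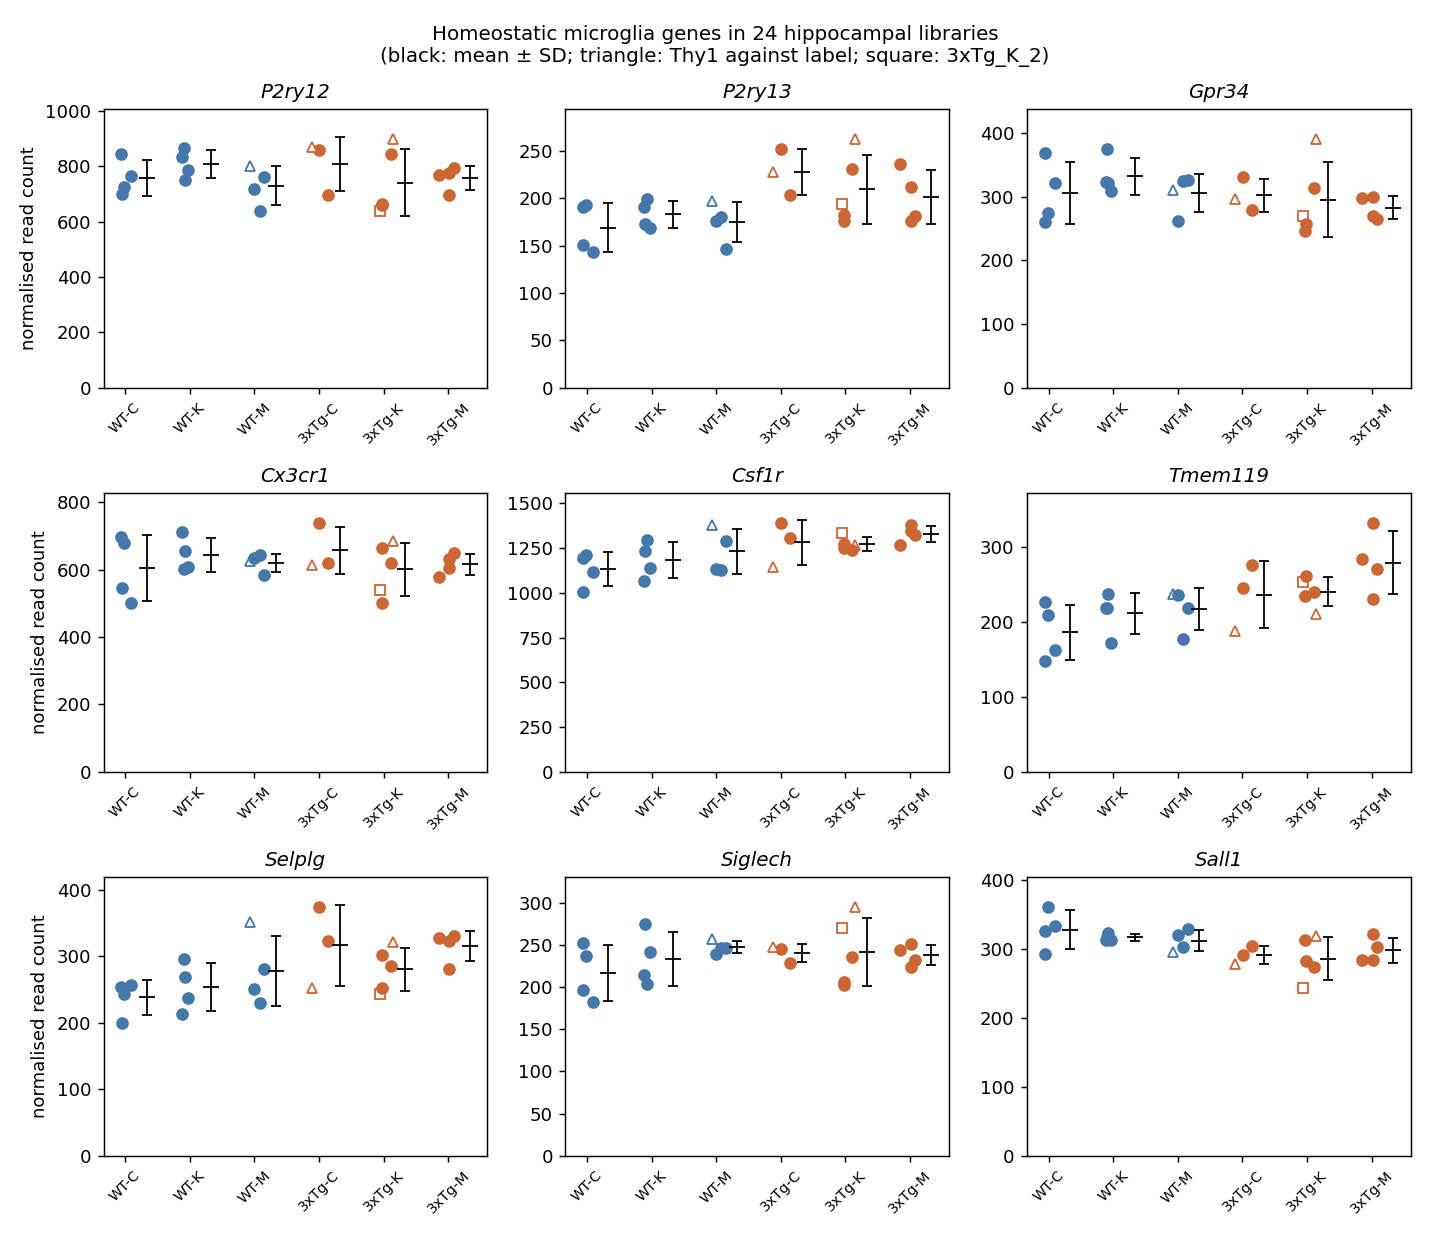
Normalised read counts (vertical axes, starting at 0) of the 9 genes in each library of the 6 strain and diet groups, with mean and SD in black; triangles are the 3 libraries whose Thy1 went against their label and the square is the shallow library 3xTg_K_2. P2ry13, Tmem119, Selplg and Csf1r sit higher in the 3 3xTg groups on the right and Sall1 sits lower, while P2ry12 and Cx3cr1 overlap.

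**Figure D2:**
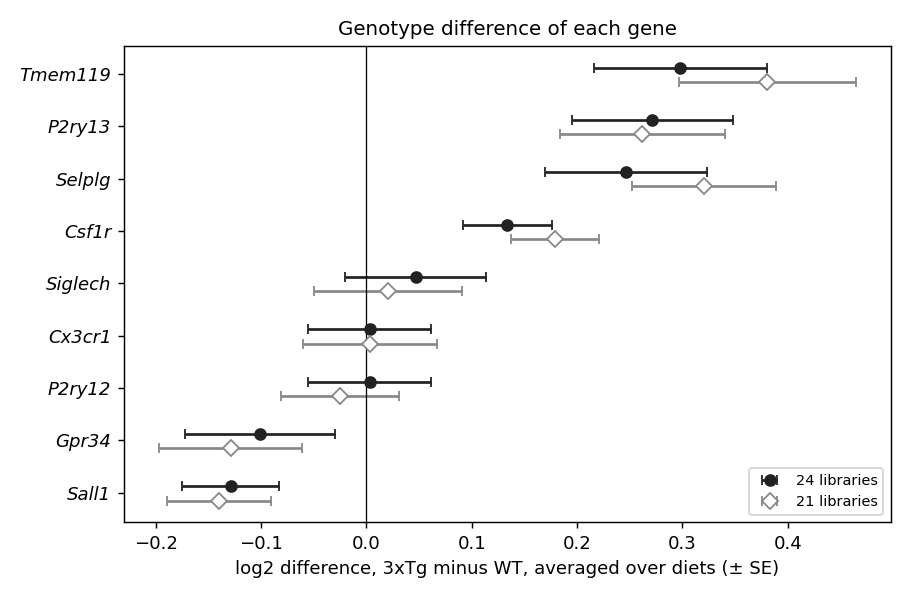
Log2 difference between the strains, 3xTg minus WT averaged over diets (horizontal axis), with its SE, for all 24 libraries (filled) and for the 21 libraries left after the label check (open). Tmem119, P2ry13 and Selplg lie farthest to the right in both fits, at 0.30, 0.27 and 0.25 with 24 libraries, and Sall1 lies farthest to the left at -0.13.

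With 21 libraries 4 of the 9 genes rose in 3xTg (P2ry13, Csf1r, Tmem119 and Selplg), where 13.2% of 14126 genes were called, and the median of the 9 was 0.021. Single libraries mattered to the calls with 24. P2ry13 passed in 18 of the 24 fits that each left out 1 library, and did not pass without 3xTg_C_1, 3xTg_M_1, 3xTg_M_2, WT_C_2, WT_K_2 or WT_M_4. Tmem119 passed in 20 of 24, and did not without 3xTg_C_1, 3xTg_C_2, 3xTg_M_1 or WT_M_1. Selplg passed in 7 of 24, the 17 others giving adjusted p values up to 0.144, so its call rests on most of the single libraries. Leaving out 3xTg_C_1 or 3xTg_M_1 ended all 3 calls.

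The ratio of 2 genes within a library cancels its scaling factor and any change that moves both genes alike. The ratio of P2ry13 to P2ry12 was 0.231 ± 0.031 (SD, n = 12) in WT and 0.277 ± 0.028 (n = 12) in 3xTg, with 6 of 12 3xTg libraries above every WT library. Tmem119 to P2ry12 was 0.268 ± 0.039 and 0.338 ± 0.076, with 7 of 12 3xTg libraries above every WT library. The 2 lowest of its 3xTg values came from the libraries labelled 3xTg_C_3 and 3xTg_K_1, as the plot of ratios shows.

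Selplg to P2ry12 was 0.336 ± 0.047 in WT and 0.397 ± 0.055 in 3xTg (SD, n = 12 each). Here 3 of 12 3xTg libraries lay above every WT library, and 8 of 10 did once the 3 libraries were left out. The ratio of Sall1 to Csf1r was 0.272 ± 0.025 in WT and 0.226 ± 0.019 in 3xTg (SD, n = 12 each), and 10 of 12 WT libraries lay above every 3xTg library. The lowest WT ratio, 0.214, came from the library labelled WT_M_2. These ratios are descriptions, since their genes were paired after the differences of single genes were known.

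**Figure D3:**
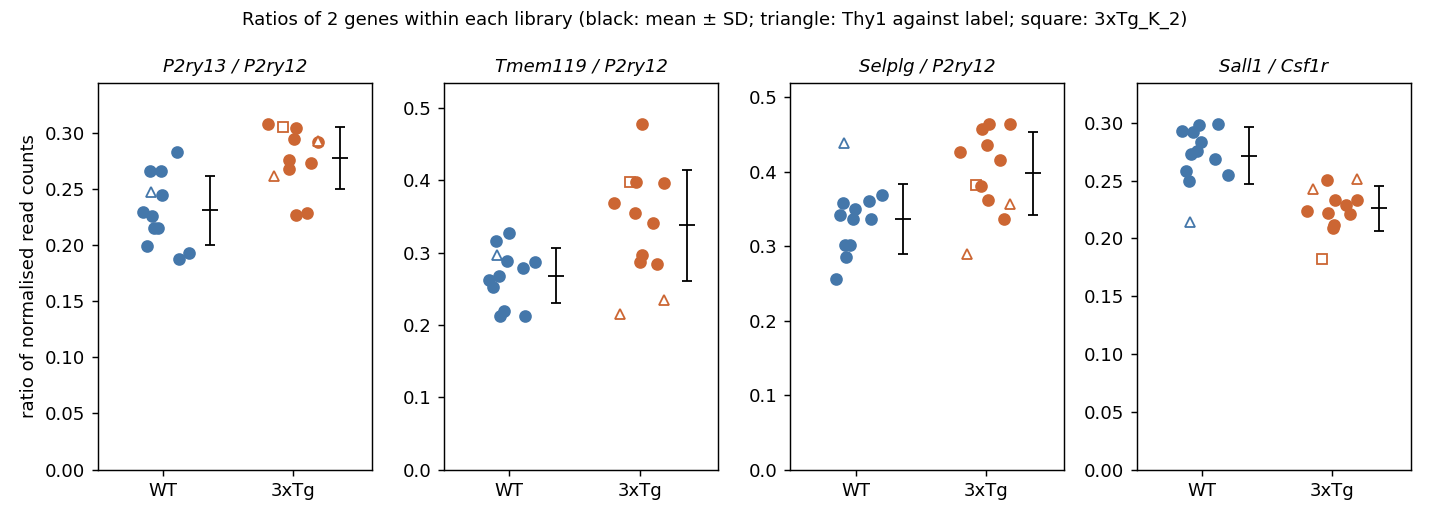
Ratios of normalised read counts of 2 genes in the same library (vertical axes, starting at 0) for WT and 3xTg, with mean and SD in black, triangles for the 3 libraries whose Thy1 went against their label and a square for 3xTg_K_2. The first 3 ratios are higher in 3xTg, and Sall1 to Csf1r is lower, at 0.226 against 0.272 in WT.

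On the control diet alone 7 of the 9 genes were higher in 3xTg, with a median of 0.156 on the log2 scale against -0.007 over all genes, but none passed, where 0.0565% of all genes did. In limma, 4 of the 9 had an unadjusted p under 0.05, as did 2050 of the 14162 genes tested. By edgeR and DESeq2 on the recovered reads, 0 of the 9 were called. P2ry13 was at 252, 203 and 228 normalised counts in 3xTg_C_1, 3xTg_C_2 and the library labelled 3xTg_C_3, and at 150, 143, 191 and 193 in WT_C_1 to WT_C_4. The groups did not overlap, though how many of all genes separate so with these few libraries was not computed. The log2 difference of P2ry13 was 0.44 ± 0.14 (SE; limma adjusted p = 0.175), or 1.35-fold.

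Selplg was at 374, 323 and 252 in the 3 3xTg control libraries and at 199.5, 256, 254 and 244 in the WT ones. The library labelled 3xTg_C_3 lay within the WT range and the others above it, a log2 difference of 0.39 ± 0.14 (limma adjusted p = 0.223). Tmem119, at 246, 276 and 188 against 148, 162, 226 and 209, differed by 0.35 ± 0.15, with the same library inside the WT range (limma adjusted p = 0.307). With 21 libraries Selplg rose by 0.55 ± 0.13 (limma adjusted p = 0.0288) and was the 1 gene of the 9 called, where 1.74% of all genes were called. That fit has 2 libraries in the 3xTg control group.

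Sall1 on the control diet was at 291, 305 and 279 in 3xTg and at 293, 333, 326 and 361 in WT. The groups overlapped in 1 library each, and the log2 difference was -0.17 ± 0.09 (limma adjusted p = 0.367). WT_C_1 had the lowest summed count of the 9 genes of any library, 3496, and the highest summed count of the choroid plexus markers, 13042 against a WT median of 609, and the part of this in the control comparison was not tested. Without WT_C_1 the median difference of the 9 on the control diet was 0.114, against 0.156 with it, and 7 were higher in both fits. The median was 0.096 without WT_C_2, with 8 genes higher.

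On the ketogenic diet 5 of the 9 were higher in 3xTg and 4 lower, with 0 called where 0.155% of all genes were called. None of the 9 had an unadjusted p under 0.05, where 2073 of the 14162 genes tested did. Tmem119 differed there by 0.19 ± 0.13 on the log2 scale (limma adjusted p = 0.529) and P2ry13 by 0.18 ± 0.12 (limma adjusted p = 0.523). With 21 libraries 4 of the 9 were higher, the median turned from 0.043 to -0.033 and 511 of all genes (3.62%) were called, none of them among the 9. Gpr34 was then the lowest, at -0.29 ± 0.11 (limma adjusted p = 0.142). An unadjusted p under 0.05 was reached by 3 of the 9 in that fit, and by 2545 of 14126 genes. On the MCT diet 5 were again higher and 4 lower. Tmem119 reached 332, 284, 271 and 231 in 3xTg against 177, 237, 236 and 219 in WT, where the second WT value is from the library labelled WT_M_2. The lowest 3xTg library lay within the WT range, and the log2 difference of 0.36 ± 0.14 did not pass (limma adjusted p = 0.58). Of all genes 0% passed on the MCT diet, though 1008 had an unadjusted p under 0.05, and Tmem119 was the 1 gene of the 9 among these. DESeq2 called 22 genes there and edgeR 0, none of them among the 9. With 21 libraries, and so without WT_M_2, 250 of all genes (1.77%) passed, again none of the 9. Tmem119 then differed by 0.40 ± 0.14 (limma adjusted p = 0.221), and the median over the 9 moved from 0.059 to 0.105 with 5 of them higher in both fits. None of these within-diet results shows that the strain difference depends on the diet, which the interaction tests address.

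The diet comparisons address whether food changes these genes within a strain. No gene of the 9 passed in any of the 6 diet comparisons, by limma, edgeR or DESeq2, and with 24 libraries none had an unadjusted p under 0.05. In WT mice, the ketogenic diet gave higher values than the control diet for 8 of 9 genes, with a median of 0.10 on the log2 scale. The differences ran from -0.05 for Sall1 to 0.19 ± 0.14 for Tmem119 (limma adjusted p = 0.983), and 0% of all genes passed, with 654 at an unadjusted p under 0.05. Leaving out WT_C_3 raised this median to 0.173 and leaving out WT_C_1 lowered it to 0.053.

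In 3xTg mice the same diet gave lower values for 8 of 9 genes, with a median of -0.05 and differences from -0.16 ± 0.14 for Selplg (limma adjusted p = 0.816) to 0.04 ± 0.15 for Tmem119 (limma adjusted p = 0.967). With 21 libraries, which leave 3xTg_C_1 and 3xTg_C_2 as the 3xTg control group, all 9 were lower, with a median of -0.15. Of all libraries, 3xTg_C_1 had the highest summed count of the 9 genes, 4725. An unadjusted p under 0.05 was reached by 1 of the 9 in that fit, and by 921 of 14126 genes. Selplg was then the lowest, at -0.37 ± 0.13 (limma adjusted p = 0.747), and Tmem119 was at -0.07. Leaving out 1 library moved the median from -0.156 (without 3xTg_K_1) to -0.028 (without 3xTg_K_3). With 24 libraries, here too 0% of all genes passed, with 948 at an unadjusted p under 0.05. This comparison and the genotype comparison on the control diet share the 3 3xTg control libraries.

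The interaction, the ketogenic difference in 3xTg minus that in WT, was below 0 for 8 of 9 genes, with a median of -0.174 and values from -0.26 ± 0.19 for P2ry13 (limma adjusted p = 0.796) to 0.02 for Sall1. For P2ry12 it was -0.23 ± 0.14, with a 95% interval from -0.53 to 0.06 (limma adjusted p = 0.76), and for Cx3cr1 -0.23 ± 0.14 (limma adjusted p = 0.76). No gene of the 9 and 0% of all genes passed, with 946 at an unadjusted p under 0.05. With 21 libraries all 9 were below 0, with a median of -0.266, and 0 genes of all passed. The 3xTg control group was again 3xTg_C_1 and 3xTg_C_2 alone. An unadjusted p under 0.05 was reached by 2 of the 9 in that fit, and by 931 of 14126 genes. Selplg moved from -0.25 to -0.45 ± 0.17 (limma adjusted p = 0.748), the lowest of the 9. In the fits that left out 1 library the median was -0.101 without WT_C_1 and -0.28 without 3xTg_K_1, and with 24 libraries the intervals of P2ry13, P2ry12 and Cx3cr1 reached both sides of 0.

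The MCT diet against control gave 7 higher and 2 lower genes in WT, with a median of 0.054 (0.004 without WT_C_1, 0.123 without WT_C_3) and the largest value for Tmem119, 0.23 ± 0.14 (limma adjusted p = 0.989). In 3xTg it gave 4 higher and 5 lower, from -0.18 ± 0.14 for P2ry13 to 0.25 ± 0.15 for Tmem119 (limma adjusted p = 0.999 for both). With 21 libraries 5 of 9 were higher in WT, with a median of 0.047, and 2 of 9 in 3xTg, where Tmem119 was at 0.09 ± 0.16. The 3xTg control group of that fit was 3xTg_C_1 and 3xTg_C_2 alone. With 24 libraries the share of all genes that passed was 0.00706% in WT and 0% in 3xTg, where 378 had an unadjusted p under 0.05.

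The ketogenic minus MCT difference in WT ran from -0.12 for Selplg to 0.15 for P2ry12, where 0.00706% of all genes passed, and in 3xTg from -0.21 ± 0.13 for Tmem119 to 0.05 ± 0.12 for P2ry13, where 0% passed and 486 had an unadjusted p under 0.05. With 21 libraries the difference in 3xTg was below 0 for all 9, with a median of -0.091 and the lowest value, -0.22, for Selplg, while in WT 5 of 9 were higher and P2ry12 was at 0.20. An unadjusted p under 0.05 was then reached by 1 of the 9 in each strain. Of all 14126 genes, 686 reached it in 3xTg and 380 in WT. The MCT interaction was below 0 for 7 of 9 genes, with a median of -0.10, and again 0% of all genes passed, with 393 at an unadjusted p under 0.05. In the diet comparisons and interactions where limma called 0% of all genes, edgeR and DESeq2 on the recovered reads called 0 genes as well.

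**Figure D4:**
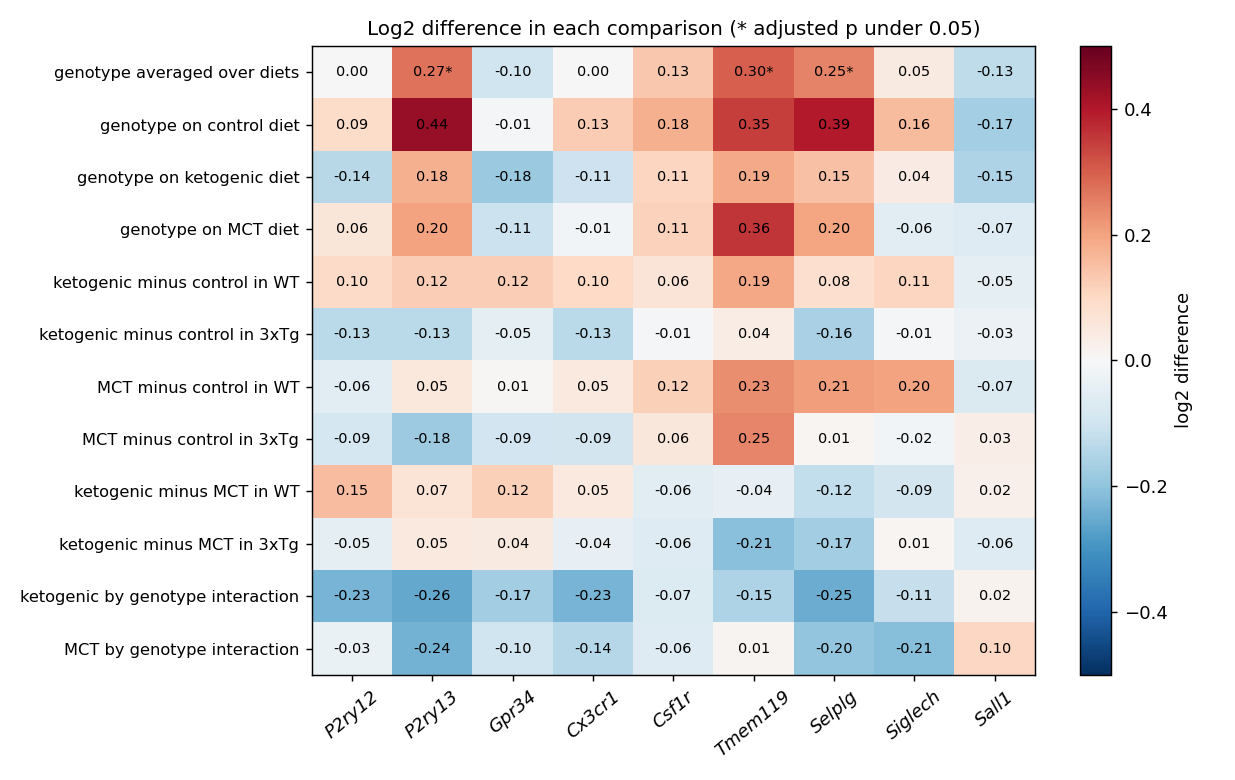
Log2 difference (colour and printed value) of each of the 9 genes (columns) in each of the 12 comparisons (rows), with an asterisk where the limma adjusted p was under 0.05. Asterisks stand at P2ry13, Tmem119 and Selplg in the genotype row averaged over diets, and at no other place.

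Ordered by group mean, the 6 groups gave each gene a narrow range, from 1.09-fold between the highest and the lowest group for Cx3cr1 to 1.5-fold for Tmem119, at 279.5 ± 41.8 (SD, n = 4) in 3xTg MCT and 186 ± 36.9 (n = 4) in WT control. For P2ry13, Csf1r, Tmem119 and Selplg all 3 3xTg groups ranked above all 3 WT groups, and in each case WT control was lowest. For Sall1 and Gpr34 all 3 WT groups ranked above all 3 3xTg groups. How many of all genes separate the strains in this way was not computed, so these orders are descriptions. P2ry12 was highest in WT ketogenic, at 809.5 ± 50.8 (n = 4), and lowest in WT MCT, at 729.6 ± 70.1 (n = 4), and Siglech was highest in WT MCT, at 247 ± 7.54 (n = 4). Neighbours in these orders differed by less than the larger of their SDs, with 1 exception, Selplg in 3xTg MCT over 3xTg ketogenic, at 315 ± 23.1 (n = 4) and 280.5 ± 32.5 (n = 5).

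Over the 24 libraries with the group means removed, the 9 genes varied together only in part. Of the 36 pairs, 34 had a Pearson r above 0, with a median of 0.29 and a range from -0.11 to 0.75. P2ry12 with Gpr34 had r = 0.72 (rho = 0.71) and Csf1r with Selplg r = 0.75 (rho = 0.65), each with an adjusted p of 0.0405 over the 36 pairs by permutation within groups. By Spearman's rho neither passed, with adjusted p of 0.068 and 0.0714, and without the 2 libraries farthest from the median r was 0.58 and 0.61. Tmem119 had the lowest pairs, -0.11 with P2ry12 and -0.08 with Gpr34, but 0.62 with Csf1r. Libraries share their depth and tissue composition, which enter every pair.

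**Figure D5:**
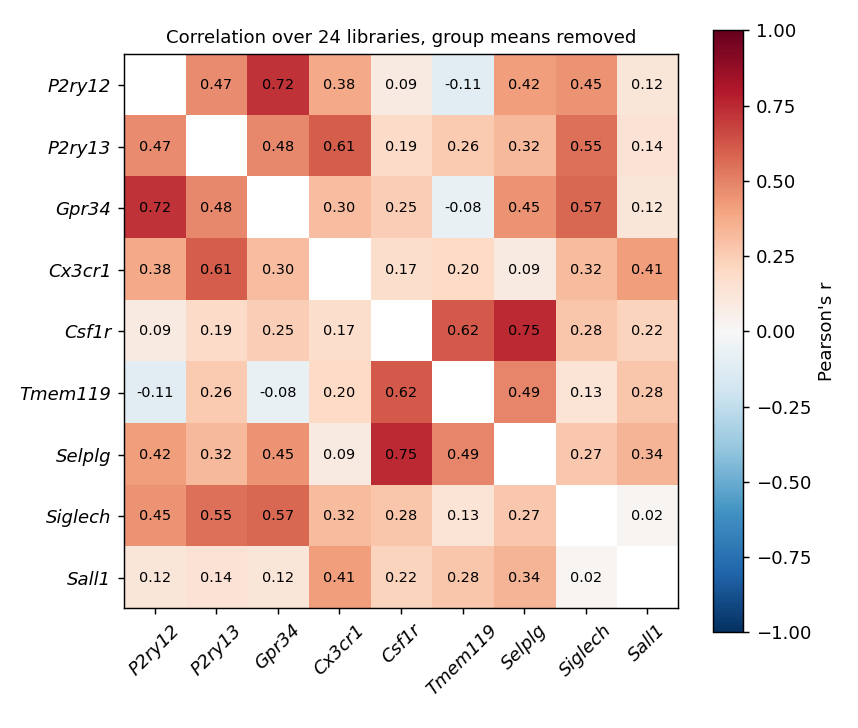
Pearson's r between the 9 genes over 24 libraries after group means were removed (colour and printed value). P2ry12 and Gpr34 (0.72), and Csf1r and Selplg (0.75), give the highest values, and Tmem119 is lowest with P2ry12 (-0.11).

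The correlation of each gene with the mean of the other 8 ran from 0.32 for Tmem119 and Sall1 to 0.63 for P2ry13. Among 12359 other genes, all averaging 32 normalised counts or more, those most like the mean of the 9 over the 24 libraries were Lonp2 (r = 0.80), 1110059E24Rik (0.79), Ly86 (0.76), Itm2b (0.75), Psmd14 (0.75), Vps35 (0.75), Cck (0.75), Rps7 (0.75), Cd81 (0.75) and Scnm1 (0.74). Of these 10 genes only Ly86, a myeloid gene, belonged to a list of microglial genes used here. By Spearman's rho 5 of the 10 stayed among the first 10. With 21 libraries 1 of the 10 did, Lonp2 at rank 3, and the others ranked from 13 to 76.

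Among the genes of the ligands of these receptors, Csf1, which encodes a ligand of Csf1r, fell in 3xTg, from 365 ± 37.3 to 319 ± 24.0 normalised counts (SD, n = 12 each), by 0.19 ± 0.05 on the log2 scale (limma adjusted p = 0.0158). All 12 3xTg libraries lay below the WT mean, and the call was lost in 1 of 24 fits that left out a library. Il34, the other ligand, differed by -0.05 ± 0.05 and Cx3cl1, which encodes fractalkine, by -0.11 ± 0.05, neither passing (adjusted p = 0.617 and 0.188). Selp, which encodes P-selectin, was too low to be kept, so 1 of the 3 kept ligand genes passed, where 8.1% of all genes did.

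Of 11 genes of the TGF-beta pathway none passed, and 3 were higher and 8 lower. An unadjusted p under 0.05 was reached by 3 of the 11, and by 3456 of the 14162 genes tested, a similar share. Smad2, a signal transducer of the pathway, differed by 0.11 ± 0.04 (limma adjusted p = 0.0619) and its partner Smad3 by -0.15 ± 0.06 (limma adjusted p = 0.116). With 21 libraries Smad2 passed (limma adjusted p = 0.0251). Of 6 transcription factors of microglia none passed, nor had any an unadjusted p under 0.05. Irf5 differed by 0.16 ± 0.10 (limma adjusted p = 0.313).

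Of 12 other homeostatic microglia genes, 9 were higher and 3 lower, with a median of 0.089. Vsir, which encodes an immune checkpoint receptor, was the 1 of the 12 that passed, where 8.1% of all genes did. It rose from 256 ± 11.5 to 292 ± 25.0 normalised counts (SD, n = 12 each), by 0.20 ± 0.05 (limma adjusted p = 0.0104), and passed in all 24 fits that left out a library. With 21 libraries 13.2% of all genes passed, and 3 of the 12, Vsir and 2 genes named here after their values were seen. Slco2b1 then rose by 0.28 (limma adjusted p = 0.0082) and Cd33 fell by 0.27 (limma adjusted p = 0.04), against 0.18 ± 0.08 and -0.19 ± 0.08 with 24 libraries (limma adjusted p = 0.144 and 0.158). Of 14 general microglial and myeloid genes, 8 were higher and 6 lower, and C1qa and C1qb, subunits of the first complement component, rose by 0.26 ± 0.07 and 0.25 ± 0.08 (limma adjusted p = 0.0181 and 0.0493). C1qa passed in all 24 fits that left out a library and C1qb in 9. With 21 libraries C1qc, a further subunit named here after its values were seen, passed as well, at 0.22 (limma adjusted p = 0.0123) against 0.17 ± 0.06 with 24 libraries (limma adjusted p = 0.0765). None of the 6 lower estimates passed, among them Aif1, at -0.17 ± 0.11 (limma adjusted p = 0.335).

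Of 14 genes known to rise in microglia around amyloid plaques, 10 were kept, 7 higher and 3 lower, and with 24 libraries the 2 that passed fell. The share of all genes that passed was 8.1%. Axl, a receptor tyrosine kinase that takes part in the uptake of dying cells, fell by 0.13 ± 0.04 (limma adjusted p = 0.0263), and Gpnmb, a transmembrane glycoprotein, fell by 0.48 ± 0.15 (limma adjusted p = 0.043). Axl passed in 22 and Gpnmb in 7 of the 24 fits that left out a library. With 21 libraries 5 of the 10 were higher and 3 passed, Axl and Gpnmb, which fell, and Spp1, which rose. The share of all genes that passed in that fit was 13.2%. Gpnmb then fell by 0.75 (limma adjusted p = 6.87e-06). Spp1, the gene of the secreted protein osteopontin, named here after its values were seen, rose by 0.70 (limma adjusted p = 0.0232), against 0.50 ± 0.20 with 24 libraries (limma adjusted p = 0.125).

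Markers of other cells were read to see what else moved with the strains. Monocyte and neutrophil markers were all too low to keep (0 of 7, the highest mean at 3.41 normalised counts), and their summed count was 1.93 to 15.1 in WT and 3.28 to 27.0 in 3xTg. Of 9 border macrophage markers 5 were kept and none passed. Their sum ranged from 244 to 391 in WT and from 261 to 538 in 3xTg. Pf4, Ms4a7, Cbr2 and Cd209f, which were not kept, had medians under 5. The medians of the 5 kept markers ran from 14.1 for Lyve1 to 143 for Stab1. The 2 with the smallest p were Mrc1, at 0.19 ± 0.16, and Lyve1, at 0.19 ± 0.26 (limma adjusted p = 0.494 and 0.709).

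Oligodendrocyte markers were higher for 6 of 6 genes, where 49.6% of all genes were higher and 8.1% passed. Mobp, a gene of a myelin protein, rose by 0.23 ± 0.07 (limma adjusted p = 0.0485), and the summed count was 50080 to 82431 in WT and 61920 to 82784 in 3xTg. With 21 libraries 4 of 6 were higher, and Mobp no longer passed (limma adjusted p = 0.0643). Endothelial markers were lower for 5 of 5, and Flt1, Cldn5 and Cdh5 fell by 0.22 ± 0.04, 0.43 ± 0.12 and 0.30 ± 0.10 (limma adjusted p = 0.00212, 0.0228 and 0.05), with sums of 2366 to 2716 in WT and 2003 to 2565 in 3xTg. Of 6 neuron markers Rbfox3 fell by 0.15 ± 0.03, and of 5 astrocyte markers Slc1a3 rose by 0.10 ± 0.03 (limma adjusted p = 0.00289 and 0.0453).

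Among these, Flt1 and Rbfox3 passed in all 24 fits that left out a library and Cldn5 in 22, while Slc1a3 passed in 9, Mobp in 6 and Cdh5 in 5. Choroid plexus markers were lower for 4 of 4 kept, with none passing (Ttr at -1.40 ± 0.74, Kl at -0.25 ± 0.11, limma adjusted p = 0.249 and 0.165). Blood markers were higher for 3 of 3, also with none passing (Hbb-bs at 0.27 ± 0.18, Hba-a1 at 0.19 ± 0.23). The part of these cell types in the differences of the 9 genes was not tested.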

How the data were processed

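Poly(A) RNA of 24 hippocampi was sequenced. The deposited table holds a signal for each gene and library, the authors' normalised read counts. Trimmomatic, STAR and GRCm38 are named, per the submitters' processing notes. The counter, annotation and scaling tool were not given in the sources used here. Within 0.01 reads, each library's values were multiples of a single step, and dividing by it recovered the reads. The test was limma 3.58.1 (R 4.3.3) on log2(value + 1), with a trended prior and a mean for each group, two-sided, with p-values adjusted by Benjamini-Hochberg over 14162 kept genes. A group's libraries are separate mice, so errors are spreads between mice. The labels name no batch. Positions came from the GENCODE annotation of GRCm38. Alternatives were TMM scaling, pseudocounts of 0.5 and 5, a filter at a mean of 50, no filter, library weights, a replicate block, the compared groups alone, edgeR 4.0.16 and DESeq2 1.42.0 on recovered reads, and each library left out. Fits of 21 libraries, and of 20 (also without 3xTg_K_2), were added after Thy1 was seen. The genes, lists and tests were chosen with earlier results of these data known. From each list up to 4 called genes are named, or the 2 with the smallest p. Some results that these lists and strains would give are not reported here.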

Additional observations from a re-analysis of the deposited data

Results flagged for a closer look

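Selplg in 3xTg_M_4 stood apart from its group. It was at 281 normalised counts, where the 3 other 3xTg MCT libraries lay between 322 and 329.9. It was the 1 such library among 45 groups of 4 or 5 libraries examined over the 9 genes, where chance flags about 1 in 20.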

How the results depend on the processing

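In the genotype comparison averaged over diets, library weights gave 5 of the 9 genes called (P2ry13, Csf1r, Tmem119, Selplg and Sall1), and leaving out 1 library in turn gave 0 to 4. On the control diet the fits of 21 and of 20 libraries gave 1 gene each (Selplg). P2ry13 and Tmem119 passed in all 11 alternatives other than leaving out 1 library, Selplg in 9 and Csf1r in 6; Selplg was lost with no filter and with the replicate block, and the cause was not tested. The replicate numbers did not pair the libraries (mean r of deviations 0.0061 over 55 pairs with the same number, -0.0019 over 184 others); with a replicate block 3 genes passed (P2ry13, Tmem119 and Csf1r) and 8.31% of all genes. Signs changed near 0. Averaged over diets, P2ry12 was at -0.025 with 21 and -0.011 with 20 libraries and -0.021 to 0.037 with 1 left out, Cx3cr1 at -0.011 with library weights, -0.0038 with the replicate block and -0.025 to 0.028 with 1 left out, and Siglech at -0.0071 with 20 libraries. Tmem119 in 3xTg ketogenic minus control was at -0.073 and -0.085 with 21 and 20 libraries and -0.12 to 0.16 with 1 left out. P2ry13 in 3xTg ketogenic minus MCT was at -0.036 and -0.035 with 21 and 20, and -0.036 to 0.13 with 1 left out. The ketogenic interaction of Sall1 was at -0.028 with the replicate block, -0.058 with 21 libraries and -0.031 to 0.073 with 1 left out. Of 99 differences in the other 11 comparisons, 28 changed sign under some alternative, all of them 0.07 or smaller in size. The shallow library 3xTg_K_2, at 2.65 M reads, has the largest counting error. All genes called averaged over diets numbered 1147, against 576 without 3xTg_C_1, 768 without 3xTg_M_2, 1797 with library weights, 1858 with 21 libraries and 1758 with 20.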
